A study of Mus musculus with 8 samples.

Results

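The 9 genes described here release glucose from the liver or store and mobilize glycogen, and they were taken by name from the 23282 rows of the count files. *G6pc*, *Pck1*, *Fbp1* and *Slc2a2* encode proteins of glucose output, *Gys2* and *Pygl* the liver enzymes that build and break down glycogen, and *Ppp1r3g*, *Ppp1r3b* and *Ppp1r3c* the subunits that bring protein phosphatase 1 to glycogen. All 9 genes were found once and passed the filter on low counts. Their rows also stood between rows of their genomic neighbours, so that none of the 579 symbols placed more than 2 Mb from their neighbours belonged to them. The row directly above *G6pc* carried such a misplaced symbol, *Loxl3*, but the nearest rows in order around *G6pc* were those of *Aoc2* and *Aarsd1*, its neighbours on chromosome 11.

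All mice were C57BL/6, with no transgene or mutation named, and were described as 4-week-old males on a standard diet. The control group received saline, and the endotoxemic group received 25 mg/kg lipopolysaccharide (LPS), a component of the bacterial outer membrane that causes systemic inflammation. For the LGK974 group, the labels name only LGK974, an inhibitor of the enzyme Porcupine that Wnt ligands need for secretion. LGK974 was injected at 60 mg/kg. In most experiments of the study it was given 2 h before LPS, and livers were taken 6 h after LPS. That dose, the LPS of this group and these times come from the written study and not from the labels, and the times are not stated for the RNA libraries separately. Whether the mice had been fasted, and which libraries came from separate mice, is not given in the sources used here, so that p-values measure only the spread between these libraries. Liver RNA was read at the 3′ ends of transcripts, and each group held 2 distinct libraries, since endotoxemic libraries 3 and 4 repeated the counts of libraries 1 and 2 on every row and were counted once.

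The 6 distinct libraries held between 9142116 and 15222439 counts, and 3 counts, the smallest signal considered, corresponded to between 0.197 and 0.328 CPM (the count scaled by the normalized library total). These floors, like the intervals on counts, cover counting error only. Although the mice were described as male, *Ddx3y*, a gene of the Y chromosome, had 0 counts in all control and endotoxemic libraries and 1755 and 1392 counts in LGK974 samples. *Xist*, the RNA of the inactive X chromosome, had between 1171 and 3115 counts in the control and endotoxemic libraries and 3 and 7 in LGK974 samples. The control and endotoxemic libraries thus went against the male label, and in every comparison of the LGK974 group LGK974 and this difference cannot be told apart. Hepatocyte markers were high in all libraries, with summed levels of 8 of 12 listed genes between 91950 and 134500 CPM and none at 0. In bulk liver RNA, fewer cells of a type and less RNA per cell cannot be told apart.

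In gluconeogenesis, phosphoenolpyruvate carboxykinase (*Pck1*) makes phosphoenolpyruvate from oxaloacetate, fructose-1,6-bisphosphatase (*Fbp1*) acts midway, and the catalytic subunit of glucose-6-phosphatase (*G6pc*) frees glucose, which crosses the hepatocyte membrane through the transporter GLUT2 (*Slc2a2*). Glucagon, acting through cyclic AMP, and glucocorticoids raise transcription of *Pck1* and *G6pc*, and insulin lowers it. Glycogen is built by glycogen synthase (*Gys2*) and broken down by glycogen phosphorylase (*Pygl*). The glycogen-targeting subunits direct protein phosphatase 1 to both enzymes, activating the former and inactivating the latter.

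Because *G6pc* and *Pck1* are textbook targets of cyclic AMP and insulin, the 250 bases upstream of their RefSeq start sites on GRCm38.p6 are shown with those of *Fbp1*, the gene among the 9 that was not lower after LPS. They lie at chr11:101367466-101367715 (+ strand) for *G6pc*, chr2:173152823-173153072 (+ strand) for *Pck1* and chr13:62888283-62888532 (− strand) for *Fbp1*. They are written 5′ to 3′ on the strand of the gene, with matches to the searched motifs in capitals. For *G6pc* and *Pck1* the GENCODE gene starts upstream of the RefSeq start, inside the window, and for *Fbp1* the RefSeq gene itself reaches a few bases into the window.
G6pc: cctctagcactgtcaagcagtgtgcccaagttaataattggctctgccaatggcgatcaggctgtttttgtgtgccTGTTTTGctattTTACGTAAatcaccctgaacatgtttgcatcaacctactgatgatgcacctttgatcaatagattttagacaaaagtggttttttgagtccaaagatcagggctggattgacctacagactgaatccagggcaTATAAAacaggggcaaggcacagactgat
Pck1: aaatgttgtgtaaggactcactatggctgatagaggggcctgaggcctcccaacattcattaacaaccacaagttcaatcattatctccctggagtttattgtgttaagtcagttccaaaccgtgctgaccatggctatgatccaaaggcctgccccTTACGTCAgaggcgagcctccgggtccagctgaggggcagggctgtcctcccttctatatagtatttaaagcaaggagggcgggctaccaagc
Fbp1: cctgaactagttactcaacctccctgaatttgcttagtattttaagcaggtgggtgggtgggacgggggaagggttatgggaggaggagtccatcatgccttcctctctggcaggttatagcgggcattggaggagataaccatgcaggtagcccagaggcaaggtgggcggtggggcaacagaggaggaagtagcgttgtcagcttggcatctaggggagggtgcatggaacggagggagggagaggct

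Of the 9 genes, 7 had a window in the RefSeq promoter table used, and *Ppp1r3b* and *Gys2* had none. The windows of *Ppp1r3g* and *Pygl* lie inside their GENCODE genes, downstream of the annotated starts, and the GENCODE gene of *Ppp1r3c* starts inside its window. The motifs were chosen after these sequences had been read and were searched on both strands. The variant cyclic AMP response element TTACGTNA was found at −162 in *G6pc* as TTACGTAA, which is its own reverse complement and so counts as a single place, and at −93 in *Pck1* as TTACGTCA. It was in neither strand of the other 5 windows, while 0.788% of 32851 RefSeq promoters of this length held it. The consensus element TGACGTCA was in none of the 7, against 1.55% of all. The core of the insulin response sequence, TGTTTTG, was found at −174 in *G6pc* only (5.56% of all promoters), and the TATA box letters TATAAA at −29 in *G6pc* only (12.4%). None of the capital stretches overlapped. These matches describe the letters in the window and not the binding of a factor.

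The first comparison, endotoxemic against control, asked how these genes differed after LPS. Of the 9 genes, 8 were lower in the endotoxemic group, 0 were higher and *Fbp1* was not called (edgeR quasi-likelihood test, adjusted p below 0.05). Among these 8, *Ppp1r3g* is on a row that passed the filter through its control counts alone. At an unadjusted p under 0.05 the same 8 genes passed, as did 51.3% of all rows tested, and DESeq2 also called 8 lower and 0 higher. Among all 12701 rows tested, 43.4% were called in this comparison, 23.0% lower and 20.4% higher. The groups did not overlap for any of the 9 genes, as for 77.1% of all rows. The median log2 fold change was −3.61 over the 9 genes and 0.01 over all rows. The decreases ranged from a mean 1.75-fold lower for *Ppp1r3c* to 299-fold lower for *G6pc*.

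**Figure D1:**
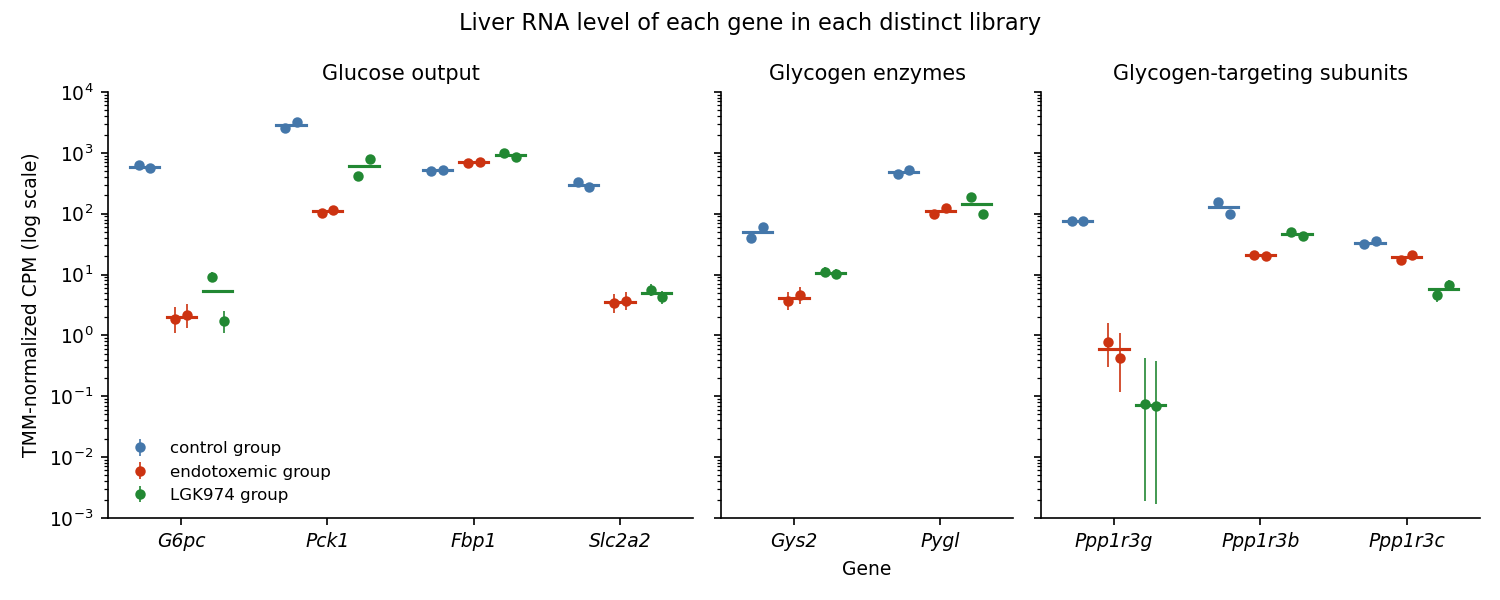
Level of each gene (TMM-normalized CPM, log scale) in each distinct library of the control, endotoxemic and LGK974 groups. Points are libraries, vertical lines exact 95% Poisson intervals of their counts, and horizontal bars group means (n = 2). Control points lie above all endotoxemic points for every gene but *Fbp1*, where they lie below.

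*G6pc* (chr11:101367561-101377903 on GRCm38, + strand) had 6717 and 8685 counts in control samples, 17 and 20 in endotoxemic samples and 120 and 25 in LGK974 samples. This corresponded to 623 and 568 CPM in the control group, 1.86 and 2.13 CPM in the endotoxemic group, and 9.06 and 1.69 CPM in the LGK974 group. The control and endotoxemic libraries did not overlap, and *G6pc* RNA was left at 0.335% of its control mean. *G6pc3*, a further glucose-6-phosphatase gene, had means of 6.00 CPM in control and 3.13 CPM in endotoxemic samples and was not called (edgeR adjusted p = 0.196). The log2 fold change of the endotoxemic group against control was −8.21 ± 0.70 (SE; adjusted p = 2.78e-05, edgeR). Measured on summed counts, the control level was 296 times the endotoxemic level (exact 95% interval of 215 to 421).

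*Pck1* (chr2:173153048-173159273, + strand), whose product catalyses an early step of gluconeogenesis, was at 2590 and 3250 CPM in control samples and at 102 and 116 CPM in endotoxemic samples. It fell to 3.73% of the control mean, a log2 fold change of −4.74 ± 0.34 (SE; adjusted p = 1.11e-05, edgeR). *Slc2a2* (chr3:28697903-28731359, + strand), the gene of GLUT2, fell from 328 and 275 CPM to 3.38 and 3.73 CPM. Its endotoxemic mean was 1.18% of control, with a log2 fold change of −6.40 ± 0.27 (SE; adjusted p = 6.29e-07, edgeR). Both genes had widely separated groups. An antisense gene, *1700112D23Rik*, overlaps *Slc2a2* through its 3′ end, and since the use of strand in counting is not given in the sources used here, reads of the pair may not be told apart.

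*Fbp1* (chr13:62864753-62888282, − strand) differed from the other genes of glucose output. It was at 511 and 532 CPM in control samples and at 671 and 717 CPM in endotoxemic samples. The endotoxemic values were both above the control values, but the log2 fold change of 0.41 ± 0.18 (SE) did not pass the test (edgeR adjusted p = 0.101). It passed in 4 of 17 alternative analyses. These were the fits with only the groups compared (edgeR adjusted p = 0.0148), with the identical libraries kept separate (0.00941), and without LGK974 library 1 or 2. The log2 fold change ranged from 0.36 to 0.52 over all 17. Whether *Fbp1* passed thus depended on which libraries shared the fit, among them LGK974 libraries outside this comparison.

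Both glycogen enzymes fell. *Gys2* (chr6:142422613-142473109, − strand) was at 40.3 and 61.0 CPM in control samples and at 3.71 and 4.58 CPM in endotoxemic samples, a log2 fold change of −3.61 ± 0.30 (SE; adjusted p = 2.4e-05, edgeR). *Pygl* (chr12:70190811-70231488, − strand) was at 453 and 527 CPM and at 98.8 and 123 CPM, a log2 fold change of −2.15 ± 0.30 (SE; adjusted p = 0.000504, edgeR). The endotoxemic mean was therefore 8.19% of control for *Gys2* and 22.6% for *Pygl*, with no overlap between the groups for either gene. *Gys1*, a further glycogen synthase gene, had means of 2.73 CPM in control and 6.70 CPM in endotoxemic samples. It was not called (log2 fold change 1.32 ± 0.58, SE; adjusted p = 0.0931, edgeR). The further phosphorylase genes *Pygb* and *Pygm* were not called either, with log2 fold changes of −0.20 and −0.91. The lincRNA gene *F730035M05Rik*, which overlaps the 5′ part of *Pygl* on the opposite strand, had at most 4 counts in any library.

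The 3 glycogen-targeting subunits fell to very different extents. *Ppp1r3g* (chr13:35958839-35970388, + strand), a subunit known to vary with feeding, had 831 and 1156 counts in control samples and 7 and 4 in endotoxemic samples, or 77.1 and 75.6 CPM against 0.764 and 0.426 CPM. The log2 fold change was −6.98 ± 0.32 (SE; adjusted p = 1.09e-06, edgeR), and on summed counts the control level was 129 times the endotoxemic level (exact 95% interval of 71.7 to 258). The *Ppp1r3g* row passed the filter on low counts through the control group alone, the group where it was highest. *Ppp1r3b* (chr8:35375739-35388139, + strand), the main subunit of liver known as GL, was at 157 and 98.4 CPM in control samples and at 21.1 and 20.2 CPM in endotoxemic samples, a log2 fold change of −2.63 ± 0.26 (SE; adjusted p = 6.36e-05, edgeR). Its control libraries were the most unequal of the 9 genes, at 1.59 times each other, but both lay above the endotoxemic libraries.

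*Ppp1r3c* (chr19:36731731-36736653, − strand), which encodes the subunit called protein targeting to glycogen, showed the smallest decrease. It was at 31.8 and 35.0 CPM in control samples and at 17.2 and 20.9 CPM in endotoxemic samples, a log2 fold change of −0.81 ± 0.25 (SE; adjusted p = 0.0286, edgeR). This call was lost when any single control or endotoxemic library was left out, namely without control library 1 (edgeR adjusted p = 0.0969) or 2 (0.149) and without endotoxemic library 1 (0.217) or 2 (0.0804). The antisense genes annotated at *Ppp1r3g* and *Ppp1r3b* overlap their 5′ parts and not the 3′ ends that the method reads.

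Markers of other cell types moved with LPS as well. The summed level of 6 of 10 listed neutrophil markers was 3.27 and 4.08 CPM in control samples, 111 and 117 CPM in endotoxemic samples and 77.2 and 81.7 CPM in LGK974 samples, with 2 or 4 of these genes at 0 in a control library and none elsewhere. The sum of 9 Kupffer cell markers was between 241 and 255 CPM in the control and endotoxemic libraries and 152 and 188 CPM in LGK974 samples, but 4 of the 9 were lower and 1, *Marco*, was higher in the endotoxemic group than in control (median log2 fold change −0.05). *Clec4f*, a marker of resident Kupffer cells, was at 37.0 and 36.5 CPM in control samples, 21.4 and 18.3 CPM in endotoxemic samples and 9.06 and 7.11 CPM in LGK974 samples. The symbol *S100a8*, a neutrophil gene, stood on a misplaced row and was not used. Summed markers of sinusoidal endothelial cells were 255 and 251 CPM in control samples, 395 and 376 CPM in endotoxemic samples and 432 and 543 CPM in LGK974 samples, although 4 of the 7 were lower and only *Lyve1* was higher after LPS (median −1.24). Of 8 stellate cell markers, 4 were lower and 1 was higher after LPS (median −1.54), with sums of 440 and 448 CPM in control, 586 and 539 CPM in endotoxemic and 460 and 553 CPM in LGK974 samples. Of 6 cholangiocyte markers, *Krt19* was lower and *Sox9* higher after LPS (median −1.43), with sums of 49.8 and 51.0 CPM in control, 95.4 and 104 CPM in endotoxemic and 55.0 and 100.2 CPM in LGK974 samples. Those of skeletal muscle reached at most 5.38 CPM. Of 8 hepatocyte markers, 6 were lower and 2 higher in the endotoxemic group, with a median log2 fold change of −1.01, and albumin (*Alb*) was at 84850 and 52800 CPM in control samples and at 38850 and 22450 CPM in endotoxemic samples. The part of these shifts in the decreases above was not tested.

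**Figure D2:**
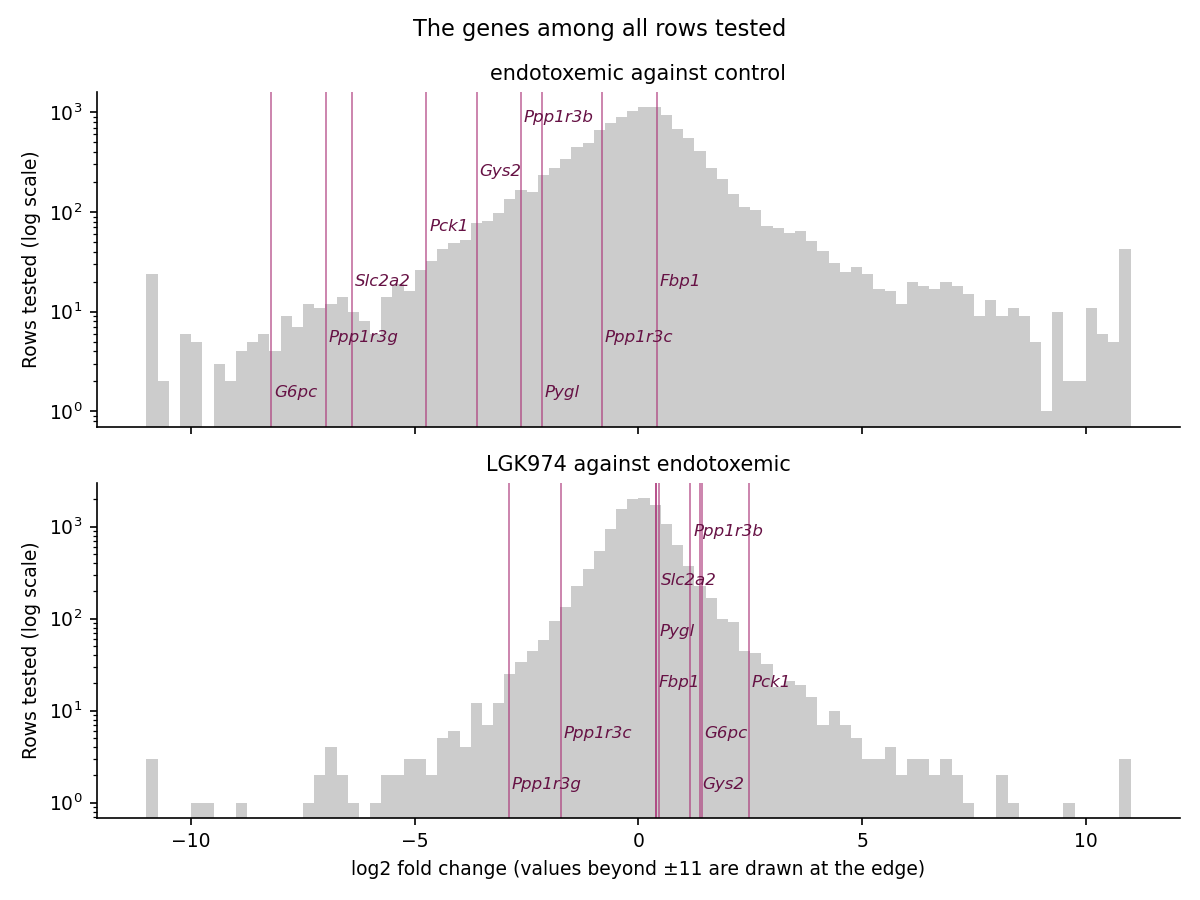
Distribution of log2 fold changes over the 12701 rows tested (grey; number of rows on a log scale) in endotoxemic against control and in LGK974 against endotoxemic, with the 9 genes as vertical lines. In the first comparison 8 lines lie below 0, from −0.81 to −8.21. In the second they spread from −2.89 to 2.47.

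The second comparison, LGK974 against endotoxemic, asked how the genes differed between LPS with and without LGK974. *Pck1*, *Gys2* and *Ppp1r3b* were higher in the LGK974 group, *Ppp1r3c* and *Ppp1r3g* were lower, and *G6pc*, *Fbp1*, *Slc2a2* and *Pygl* did not pass the test (edgeR adjusted p below 0.05). Among all rows, 5.62% were called in this comparison, 2.80% higher and 2.82% lower. The median log2 fold change was 0.45 over the 9 genes and 0.03 over all rows. Of the 5 calls, that of *Ppp1r3g* is on a row that passed the filter through its control counts alone. With endotoxemic library 1 or endotoxemic library 2 left out 0 of the 9 genes were called, the edgeR adjusted p of these 5 genes then lying between 0.0541 and 0.3, and with control library 1 or control library 2 left out 3 were called. Calls over all rows fell in the same fits, from 714 to 85 and 49 without endotoxemic library 1 and 2 and to 299 and 292 without control library 1 and 2, while the log2 fold change of *Pck1*, 2.47 in the reported fit, was 2.34 and 2.57 without endotoxemic library 1 and 2.

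*Pck1* had the largest increase. It was at 416 and 788 CPM in LGK974 samples against 102 and 116 CPM in endotoxemic samples, a mean 5.52 times as high. The log2 fold change was 2.47 ± 0.31 (SE; adjusted p = 0.00448, edgeR), with adjusted p-values of 0.0622 and 0.0665 without endotoxemic library 1 and 2. Both LGK974 libraries lay above the endotoxemic and below the control libraries, and the LGK974 mean was 20.6% of the control mean.

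*Gys2* was at 11.1 and 10.4 CPM in LGK974 samples against 3.71 and 4.58 CPM in endotoxemic samples (log2 fold change 1.37 ± 0.29, SE; adjusted p = 0.0306, edgeR). *Ppp1r3b* was at 49.4 and 42.4 CPM against 21.1 and 20.2 CPM (log2 fold change 1.16 ± 0.25, SE; adjusted p = 0.0338, edgeR). For both genes of glycogen synthesis the LGK974 libraries lay between the other groups without overlap, at 21.2% and 36.0% of the control mean. The *Gys2* call was lost in 5 of 17 alternative analyses, in which the edgeR adjusted p ranged from 0.0541 to 0.223, among them those without control library 1 or 2. The *Ppp1r3b* call was lost without endotoxemic library 1 (edgeR adjusted p = 0.215) or 2 (0.236).

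Of the other targeting subunits, *Ppp1r3c* went further from control, while *Ppp1r3g* was near or under the floor of 3 counts in both groups. *Ppp1r3c* was at 4.68 and 6.77 CPM in LGK974 samples against 17.2 and 20.9 CPM in endotoxemic samples, a log2 fold change of −1.73 ± 0.27 (SE; adjusted p = 0.0105, edgeR). Without endotoxemic library 1 and 2 the edgeR adjusted p was 0.0541 and 0.12. *Ppp1r3g* had 1 count in each LGK974 library, under the floor of 3 counts, against 7 and 4 counts in endotoxemic samples. It passed the filter on low counts only through its control counts, and with only the LGK974 and endotoxemic groups in the fit it was left out and not tested. In the fit of all groups its log2 fold change was −2.89 ± 0.66 (SE; adjusted p = 0.0398, edgeR), and on summed counts the endotoxemic level was 8.31 times the LGK974 level with an exact 95% interval of 1.81 to 77.2. With 11 and 2 summed counts, this call was lost in 7 of 15 alternative analyses, including DESeq2 (adjusted p = 0.0683) and every fit without a control library, an endotoxemic library or LGK974 library 2. The 3 subunits thus did not share a direction.

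*G6pc* differed between the LGK974 libraries more than any other of the 9 genes. LGK974 library 1 was at 9.06 CPM, above both endotoxemic libraries, and LGK974 library 2 at 1.69 CPM, below both. The log2 fold change was 1.41 with a 95% interval of −0.05 to 2.88 (edgeR adjusted p = 0.233). It was 2.18 without LGK974 library 2 and −0.23 without LGK974 library 1, so that its direction rested on LGK974 library 1, and the former passed the test (edgeR adjusted p = 0.000173). *G6pc* also passed with all libraries and no filter on low counts (edgeR adjusted p = 0.000277). *Pygl*, at 191 and 101 CPM against 98.8 and 123 CPM in endotoxemic samples, also had overlapping groups (log2 fold change 0.40, 95% interval −0.26 to 1.06; edgeR adjusted p = 0.457). Without LGK974 library 1 its log2 fold change was −0.14, and without LGK974 library 2 it was 0.79 and passed the test (edgeR adjusted p = 0.0198).

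*Slc2a2* was at 5.59 and 4.20 CPM in LGK974 samples against 3.38 and 3.73 CPM. Both LGK974 values were above both endotoxemic values, but the log2 fold change of 0.45 had a 95% interval of −0.12 to 1.03 (edgeR adjusted p = 0.326). *Fbp1* was at 976 and 844 CPM against 671 and 717 CPM, which also did not overlap and did not pass the test (log2 fold change 0.39 ± 0.18, SE; adjusted p = 0.244, edgeR). Without overlap between the groups were 7 of the 9 genes, as were 52.5% of all rows.

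**Figure D3:**
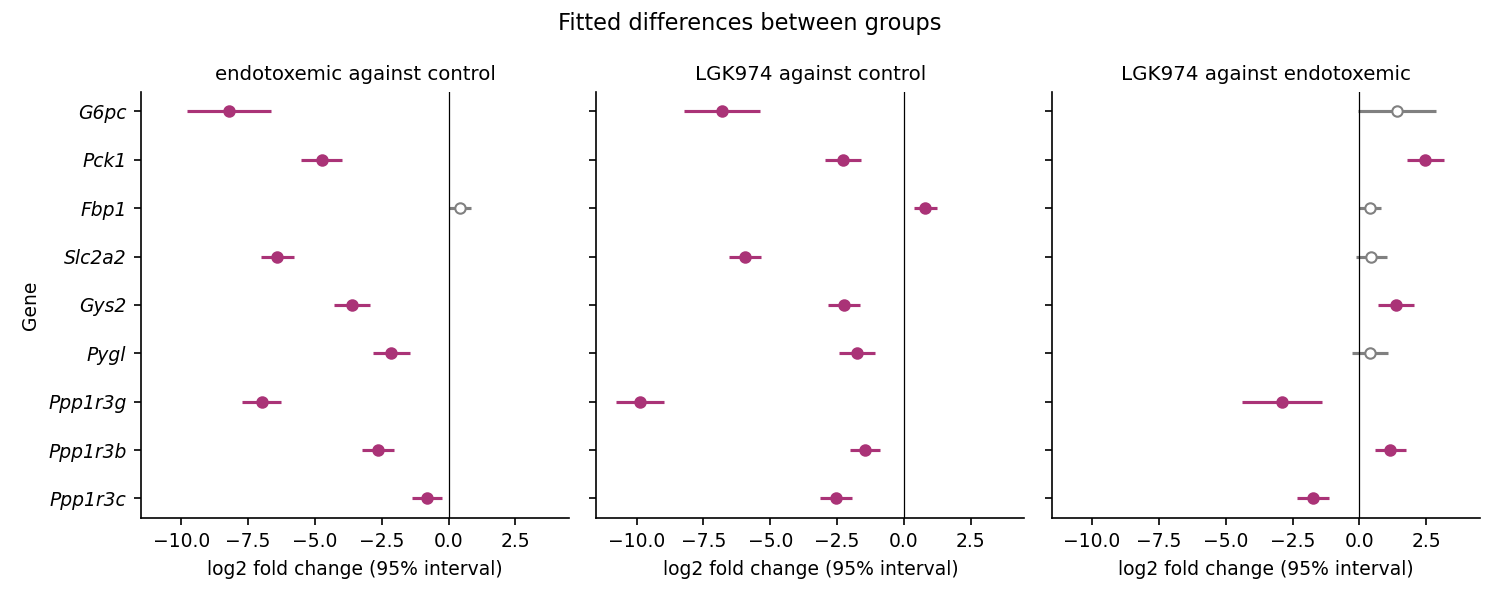
Fitted log2 fold changes of the 9 genes with 95% intervals in the 3 comparisons. Filled points passed the test (edgeR adjusted p below 0.05) and open points did not. In LGK974 against control, *Fbp1* is the point right of 0, at 0.80, and *Ppp1r3g* lies farthest left, at −9.87.

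The third comparison, LGK974 against control, shares its libraries with the other comparisons and is no separate evidence. Of the 9 genes, 8 were lower and *Fbp1* was higher in the LGK974 group, where 34.1% of all rows were called, 17.7% lower and 16.4% higher. *Fbp1* had a log2 fold change of 0.80 ± 0.19 (SE; adjusted p = 0.00945, edgeR), and its call was lost without control library 1 (edgeR adjusted p = 0.099) or 2 (0.0762). The decreases were strongest for *Ppp1r3g* (−9.87 ± 0.40, SE; adjusted p = 4.36e-07, edgeR), *G6pc* (−6.80 ± 0.63, SE; 6.03e-05) and *Slc2a2* (−5.95 ± 0.26, SE; 6.96e-07). The *Ppp1r3g* row passed the filter on low counts through the control group alone, where it was highest, and had 2 summed counts in the LGK974 group. On summed counts its control level was 1068 times the LGK974 level, with an exact 95% interval of 295 to 8823. For *G6pc*, the log2 fold change was −8.45 without LGK974 library 1 and −6.03 without LGK974 library 2. *Pck1*, *Gys2* and *Ppp1r3b*, the genes that were higher with LGK974 than with LPS alone, were still below control, with log2 fold changes of −2.28, −2.24 and −1.47. Those of *Ppp1r3c* and *Pygl* were −2.54 and −1.75. The groups did not overlap for any of the 9 genes, as for 68.1% of all rows.

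The levels over the groups therefore took different orders. In *Pck1*, *Gys2* and *Ppp1r3b* the order was control, LGK974, endotoxemic, and each neighbouring pair passed the test. In *Ppp1r3c* it was control, endotoxemic, LGK974, again with each pair past the test and with the limits given above. *Ppp1r3g* had the same order, but on a row that passed the filter through the control group alone, and its lower step rested on few counts. In *G6pc*, *Slc2a2* and *Pygl* the control group was highest and the other groups did not pass the test in the reported fit, with the exceptions given above for *G6pc* and *Pygl*, and in *Fbp1* the LGK974 group differed from control while neither neighbouring pair passed. By the Euclidean distance between log2 CPM profiles over the 6 libraries, each centred on its mean, the closest of the 9 genes were *Ppp1r3b* and *Pygl* (1.17), *Ppp1r3b* and *Gys2* (1.37) and *Pck1* and *Gys2* (1.51). The farthest apart were *G6pc* and *Fbp1* (9.65).

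Among all tested rows in order, the same distance gave the rows nearest to each gene, as a description over 6 libraries. *Pck1* was nearest to *Pank1*, which encodes a kinase of coenzyme A synthesis (0.40), and *Klhdc7a* (0.45). *Slc2a2* was nearest to *Notum* (0.72), which encodes a secreted enzyme that inactivates Wnt proteins, and *Hsd3b2* (0.99), which was also nearest to *G6pc* (1.48), followed by *Krt23* (2.26). *Ppp1r3g* was nearest to *Cyp7a1* (0.74), the rate-limiting enzyme of bile acid synthesis, and *Cyp26a1* (2.18), which breaks down retinoic acid. *Ppp1r3c* was nearest to *Cyp2c69* (0.40) and *Lilra5* (0.63), *Ppp1r3b* to *Thnsl2* (0.29) and *Coq10a* (0.31), *Gys2* to *Ncmap* (0.37) and *Cisd1* (0.52), *Pygl* to *Psd3* (0.27) and *Cyp2d22* (0.35), and *Fbp1* to *Pigf* and *2310033P09Rik* (both 0.10). The distances grow with the spread of the gene itself, which ranged from 0.82 for *Fbp1* to 9.02 for *G6pc*.

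The other genes of the same pathways were counted on rows in order, leaving out the 9 genes. Of all rows in order, 42.1% were called in endotoxemic against control, 22.7% lower and 19.4% higher, and 5.50% in LGK974 against endotoxemic, 2.84% higher and 2.65% lower. After LPS, 12 of 26 other genes of glucose output and gluconeogenesis were lower and 1 was higher, as were 6 and 1 of 16 other genes of glycogen synthesis and breakdown. The median log2 fold change was −0.95 and −0.55, respectively. *Slc37a4*, which carries glucose 6-phosphate to glucose-6-phosphatase, was at 113 and 109 CPM in control samples and at 9.71 and 8.74 CPM in endotoxemic samples (log2 fold change −3.59 ± 0.21, SE; adjusted p = 3.77e-06, edgeR). The partner of *G6pc* in glucose release thus fell as well. *Gpd1*, a cytosolic enzyme of a shuttle of reducing equivalents, and *Slc25a13*, a mitochondrial carrier of aspartate, fell, with log2 fold changes of −4.20 and −3.80. That of *Ldha*, a subunit of lactate dehydrogenase, was 1.76.

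Of the glycogen genes, *Phka2* (a subunit of phosphorylase kinase) and *Ugp2* (which makes UDP-glucose) had log2 fold changes of −2.78 and −2.63, against 1.98 for *Gyg* (glycogenin, the primer of glycogen). Of 4 other subunits of protein phosphatase 1, *Ppp1cc* and *Ppp1r3d* were higher and *Ppp1ca* was lower, by log2 fold changes of 0.68 for *Ppp1cc* and −0.70 for *Ppp1ca*. *Ppp1r3d*, a further glycogen-targeting subunit, had 0 and 2 counts in control samples and 14 and 20 in endotoxemic samples. Control was under the floor of 3 counts, so that this row passed the filter through the groups where it was higher. In glycolysis and glucose uptake 9 of 24 genes were higher and 9 lower. *Pfkfb3*, which makes the activator of phosphofructokinase, and *Pkm*, a pyruvate kinase of tissues other than liver, rose by 5.12 and 3.34 on the log2 scale. *Slc2a6*, a glucose transporter found in leukocytes, had 0 and 4 counts in control samples and 68 and 130 in endotoxemic samples. The *Slc2a6* row likewise passed the filter through groups other than control. The pyruvate dehydrogenase kinase *Pdk2* and the urate transporter *Slc2a9* fell, with log2 fold changes of −5.25 and −4.10.

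Of 48 genes of hormonal and transcriptional control of glucose output, 25 were lower and 5 higher in the endotoxemic group (median −0.92). *Nr0b2*, the receptor SHP that represses gluconeogenic genes, had 366 and 611 counts in control samples and 0 and 2 in endotoxemic samples. Its row passed the filter through groups other than the endotoxemic group. *Ppargc1b*, a coactivator related to PGC-1α, and *G0s2*, an inhibitor of lipolysis, fell, with log2 fold changes of −4.11 and −3.15. The transcription factors *Cebpd* and *Foxa3* rose by 3.24 and 1.68 on the log2 scale, and *Pde4b*, a phosphodiesterase that degrades cyclic AMP, rose by 2.85.

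**Figure D4:**
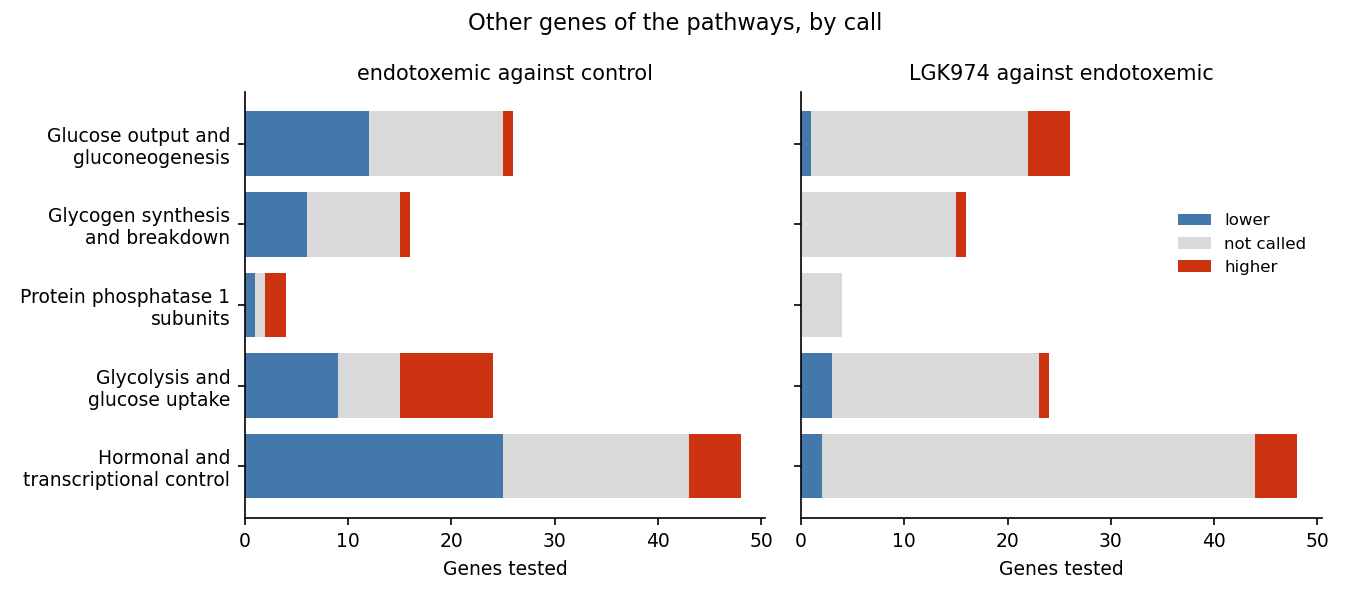
Number of other genes of each pathway list that were lower, not called or higher (edgeR adjusted p below 0.05) in endotoxemic against control and in LGK974 against endotoxemic, the 9 genes left out. Lower genes outnumber higher ones in 3 of the 5 lists after LPS, and most genes were not called between the LGK974 and endotoxemic groups.

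Between the LGK974 and endotoxemic groups, 4 of the 26 other gluconeogenic genes were higher and 1 was lower, as were 1 and 0 of the 16 glycogen genes, 0 and 0 of the 4 subunits of protein phosphatase 1, 1 and 3 of the 24 genes of glycolysis and uptake, and 4 and 2 of the 48 genes of control. *Gpd1*, *Slc37a4* and *Slc25a13*, which had fallen after LPS, were higher with LGK974 by log2 fold changes of 2.06 ± 0.21, 1.74 ± 0.20 and 1.23 ± 0.24 (SE; edgeR adjusted p = 0.00132, 0.00305 and 0.0217). *Slc37a4* was at 31.2 and 30.3 CPM in LGK974 samples, between the endotoxemic and control levels, in contrast to *G6pc* with its split libraries. *Got1*, the cytosolic aspartate aminotransferase, was lower by a log2 fold change of −1.13.

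*Stbd1*, which tethers glycogen to membranes, and *Pdk2* were higher, with log2 fold changes of 1.65 and 1.78. The transporter *Slc2a1* and the enzymes *Hk2* and *Pfkl*, which take up and phosphorylate glucose or its products, were lower by log2 fold changes of −1.65, −1.79 and −1.41. Among the genes of control, *G0s2*, *Prkaa2*, a catalytic subunit of AMP-activated kinase, and the glucocorticoid target *Tsc22d3* were higher, with log2 fold changes of 2.47, 1.87 and 1.58. *Cebpa*, a transcription factor of hepatocytes, and *Irs2*, an insulin receptor substrate, were lower by log2 fold changes of −0.83 and −1.27. The number of such calls, 16 over the 5 lists, ranged from 3 to 38 over the fits that left out a library. It was 4 and 3 without endotoxemic library 1 and 2, 8 without either control library, and 38 and 26 without LGK974 library 1 and 2.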

How the data were processed

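The authors extracted liver RNA with Trizol and prepared 3′-end libraries with the Lexogen QuantSeq kit. The authors deposited raw read counts per gene symbol, without normalization, for 8 libraries. Bowtie2, edgeR and mm10 are named in the submitters' processing notes without version or role, and the counting program is not given in the sources used here.

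Endotoxemic libraries with identical counts were counted as 1 sample. For the 6 distinct libraries, edgeR 4.0.16 in R 4.3.3 was applied to the counts (filterByExpr by group, TMM normalization, quasi-likelihood F test, group as the only factor), with Benjamini-Hochberg adjustment over 12701 rows and a threshold of 0.05. The SE was derived from the F test, and CPM are TMM-normalized. Profiles for distances used log2 CPM with a prior count of 2. Counts of 12399 genes were simulated, of which 200 were changed in the endotoxemic group only. The endotoxemic against control test called 89% of genes changed by 3 and 69% of those changed by 1.5 on the log2 scale. Of its calls, 4.82% were false. Spread in the simulation followed the trend with expression level, without a spread particular to each gene, and far fewer genes changed than were called here. These rates therefore need not hold for the data, and none were obtained for the LGK974 comparisons.

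Row order was compared with RefSeq positions on GRCm38.p6, and 22347 of 23135 rows with a position stood in order. Gene coordinates come from GENCODE on GRCm38. The genes, pathway lists and markers were chosen with earlier results of these data known. Of each list, the 3 largest called rises and 3 largest called falls on rows in order were named, and the 2 nearest profiles of each gene. Some genes that this rule names are not reported here. The treatment protocol in the labels calls the saline group normal and the LPS group control. Alternatives were other filters, normalizations, DESeq2 1.42.0, a replicate block, other treatments of the identical libraries, misplaced rows and the ribosomal RNA row, and leaving out each library.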

Additional observations from a re-analysis of the deposited data

How the results depend on the processing

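Of the 9 genes, 7 to 9 were called in endotoxemic against control (8 in the reported fit) and 8 or 9 in LGK974 against control (9) in all 17 alternatives, and every gene kept its direction in both. In LGK974 against endotoxemic, the count of 5 ranged from 0 to 6 when a library was left out and was 3 with only the groups compared. The 16 other pathway genes called there became 3 to 38 when a library was left out, 37 with no filter, 47 with the identical libraries kept separate and 8 with only the groups compared. For *G6pc* and *Pygl*, the log2 fold change ranged from −0.23 to 2.18 and from −0.14 to 0.79 when a library was left out, both lowest without LGK974 library 1. *G6pc* passed the test with no filter (edgeR adjusted p = 0.000277) and without LGK974 library 2 (0.000173), as did *Pygl* in the latter (0.0198). Where a library was left out, the lone sample of its group was assumed to vary like the others. *Ppp1r3g* could not be tested with at least 10 counts required in every library, nor in LGK974 against endotoxemic with only those groups in the fit. The causes of these shifts were not tested.

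Over all rows, the calls numbered 3432 to 7637 around 5513 in endotoxemic against control, 49 to 3259 around 714 in LGK974 against endotoxemic and 2372 to 5759 around 4328 in LGK974 against control, the lowest with a library left out and the highest with the identical libraries kept separate. Other normalizations moved the median log2 fold change of all rows to at most 0.11 and turned no gene. Deviations of same-numbered libraries correlated at 0.14, 0.0605 and −0.00749, so that the numbers were not taken to pair libraries. With a replicate block, 8, 4 and 9 of the 9 genes were called for endotoxemic against control, LGK974 against endotoxemic and the remaining comparison, *Ppp1r3g* in LGK974 against endotoxemic was no longer called (edgeR adjusted p = 0.052), and no other call changed. The block gave 74, 16 and 61 other pathway genes against 71, 16 and 60. At 0.197 to 0.328 CPM for 3 counts, depth limits *Ppp1r3g* in the LGK974 libraries.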
